A study of Mus musculus with 11 samples.

Results

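A set of 10 genes is described here in the islets of virgin and multiparous mice, with and without the insulin receptor antagonist S-961. They are genes that mature beta cells hold low, together with genes that are used as signs of beta cell dedifferentiation: *Aldh1a3*, *Neurog3*, *Ldha*, *Slc16a1*, *Hk1*, *Hk2*, *Acot7*, *Oat*, *Igfbp4* and *Smad3*. They were taken by symbol, as a list drawn up with earlier results of these data known, and all 10 were found among the 55536 annotated genes. All mice were wild-type C57BL/6J females, 9 weeks old when the study began. The multiparous group had completed 3 pregnancies and were studied 3 weeks after the last delivery, and their littermates that had not been mated served as virgin controls. S-961, a peptide antagonist of insulin at its receptor, was injected over several days before islets were isolated, whereas the untreated mice are labelled as having had no treatment. Bulk RNA-seq gave 11 islet libraries: 3 virgin and 4 multipara with S-961, and 2 virgin and 2 multipara without it. With S-961 the study counts as many mice as there are libraries. For the untreated libraries the number of mice per library is not given in the sources used here, so that p-values measure the spread between these libraries. Because treated and untreated groups also differed in being injected at all, S-961 and the injection cannot be told apart.

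In beta cells the rate of glycolysis follows blood glucose, and the pyruvate formed goes to the mitochondria. Genes that would bypass this control are kept low in beta cells and are called disallowed. Among them are the A subunit of lactate dehydrogenase, the monocarboxylate transporter that would let in lactate and pyruvate, and the low-Km hexokinases. In islets under metabolic stress, beta cells can lose mature features, and *Aldh1a3* and the progenitor factor *Neurog3* are known markers of that state. Other cells of an islet preparation, such as leukocytes, fibroblasts, endothelial cells and exocrine cells, use many of the disallowed genes freely. In whole islets, fewer cells of a type and less RNA per cell cannot be told apart, and this holds for every value below.

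Total counts ran from 22028507 to 32234146 per library. Expression is given as CPM, that is, counts scaled to a common library size with TMM factors over all 11 libraries. The 8 beta cell markers summed to between 120300 and 612600 CPM in every library, which fits the label of pancreatic islets, and *Ins1* and *Ins2* together took 35.3% to 41.4% of the counts in untreated islets against 13.2% to 20.7% under S-961. The 10 acinar markers summed to between 1796 and 12580 CPM with S-961 and between 79.5 and 169 CPM without it, and 10 of 10 were higher with S-961 in both parity groups. Some libraries stood apart from their group. In multipara untreated 1, macrophage markers summed to 718 CPM against 34.65 to 103 CPM in the other libraries, lymphocyte markers to 211 CPM against 3.96 to 34.2 CPM, and red cell genes to 2385 CPM against 56.0 to 706 CPM. In multipara S-961 3, stromal markers summed to 301 CPM, against 66.4 to 168 CPM elsewhere. The 8 cycling genes summed to 14.98 CPM in the library labelled multipara S-961 4, within the 12.1 to 32.8 CPM of the virgin S-961 libraries and apart from the 142 to 320 CPM of the other multipara S-961 libraries. They summed to 105.6 CPM in multipara untreated 1, against 10.02 to 19.59 CPM in the other untreated libraries. Results that rest on these 3 libraries are given with and without them. The parity labels were kept as given. The S-961 effects within virgin and within multipara mice rest on them, as do the comparisons by parity.

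Compared with each other per kilobase of exon, the 10 genes were at low levels in these islets, from a median over 11 libraries of 5.30 CPM per kb for *Oat* to 0.0731 CPM per kb for *Hk2*. *Ldha* stood at 4.59 CPM per kb, *Igfbp4* at 2.77, *Acot7* at 2.05, *Neurog3* at 1.83, *Hk1* at 1.22, *Smad3* at 0.971, *Aldh1a3* at 0.424 and *Slc16a1* at 0.197 CPM per kb. Between neighbours in this order, the ranges over the libraries overlapped, except that the lowest *Smad3* value (0.785 CPM per kb) was above the highest *Aldh1a3* value (0.586 CPM per kb). *Ldhb*, the B subunit of lactate dehydrogenase, had a median of 10.2 CPM per kb. Of the other monocarboxylate transporter genes, *Slc16a3* and *Slc16a7* were looked at. They were about as low as *Slc16a1*, at 0.189 CPM per kb for *Slc16a3* and 0.211 CPM per kb for *Slc16a7*. *Ins2* stood at 87728 CPM per kb.

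**Figure D1:**
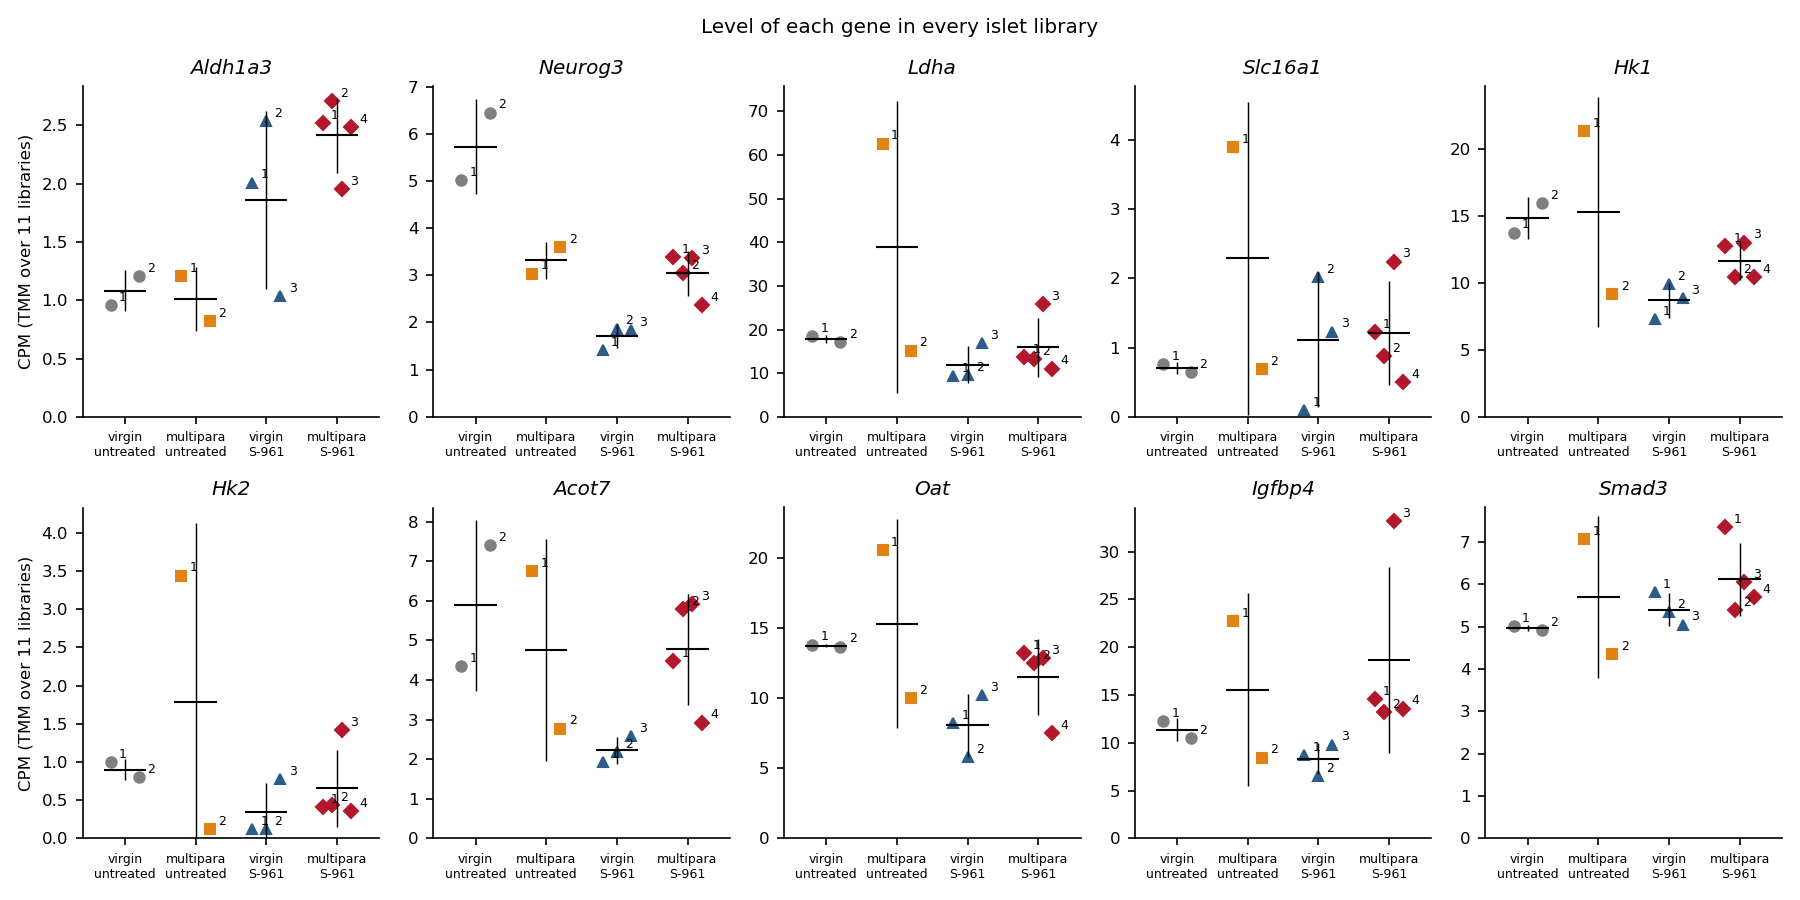
Level of each of the 10 genes in every library, in CPM scaled by TMM over 11 libraries, on axes that start at 0. Each symbol is 1 library with its replicate number, horizontal bars are group means and vertical bars are 1 SD, cut at 0. Multipara untreated 1 is the highest library for *Ldha*, *Slc16a1*, *Hk1*, *Hk2* and *Oat*.

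*Aldh1a3* was higher with S-961. The gene encodes a retinaldehyde dehydrogenase that is scarce in mature beta cells, and it lies on the minus strand of chromosome 7 (chr7:66390890-66427517, GRCm38). Untreated islets had 0.957 and 1.21 CPM in virgin and 1.21 and 0.819 CPM in multipara mice. With S-961, virgin islets had 2.01, 2.53 and 1.04 CPM, and multipara islets had 2.52, 2.71, 1.96 and 2.48 CPM. All 4 multipara S-961 libraries were above every untreated library, and virgin S-961 3 lay among the untreated ones. In multipara mice the log2 fold change was 1.24 (SE 0.40, 2.37-fold), with an adjusted p = 0.0323 (edgeR quasi-likelihood F-test, Benjamini-Hochberg adjustment over all genes tested, threshold 0.05). In virgin mice it was 0.78 (SE 0.41, adjusted p = 0.158), and over both parity groups the mean effect was 1.01 (SE 0.29, adjusted p = 0.0122). Counts were low, between 13 and 93 reads per library. The call in multipara mice was lost without multipara untreated 1 (log2 fold change 1.56, adjusted p = 0.0752), without multipara untreated 2 (1.01, adjusted p = 0.185) and without multipara S-961 1 (1.22, adjusted p = 0.0622), and that on the mean without virgin untreated 1 (0.93, adjusted p = 0.056). The acinar markers rose with S-961 as well, and over the 11 libraries *Aldh1a3* and the acinar gene *Cpa1* had a Pearson r of 0.87 on the log2 CPM scale, a description across groups that differ in both. *Cpa1* was at 205 CPM in virgin S-961 3, the S-961 library with the least of both genes, and at 535 to 1288 CPM in the other S-961 libraries. The part of the acinar content in the *Aldh1a3* difference was not tested.

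*Neurog3* was lower with S-961 in virgin mice. It encodes the transcription factor that starts the endocrine program in pancreatic progenitors (chr10:62133090-62134763, plus strand). Virgin untreated islets had 5.01 and 6.45 CPM, and virgin S-961 islets had 1.42, 1.87 and 1.84 CPM. Multipara islets had 3.04 and 3.59 CPM untreated and 3.39, 3.06, 3.37 and 2.36 CPM with S-961. The virgin groups were thus well separated, while the multipara groups overlapped and lay between them. In virgin mice *Neurog3* fell by 1.74 on the log2 scale (SE 0.27, 3.34-fold lower, edgeR adjusted p = 0.000891). The multipara log2 fold change was -0.12 (95% interval -0.69 to 0.45, adjusted p = 0.734). The virgin call held in every alternative and with each library left out, with adjusted p between 8.21e-08 and 0.0173. *Neurog3* carried split reads, with non-whole counts in 10 of 11 libraries, and it lies within the span of *Fam241b* on the opposite strand. In virgin mice, hormone genes fell along with *Neurog3*, those of beta cells included (*Ins1* -1.42 and *Ins2* -1.55 on the log2 scale). *Gcg*, the glucagon gene of alpha cells, was at 44610 and 50370 CPM in virgin untreated and at 12490 to 13350 CPM in virgin S-961 islets, and in multipara islets it was at 23750 and 34810 CPM untreated and at 14530 to 21630 CPM with S-961. The Pearson r of *Neurog3* with *Gcg* over 11 libraries was 0.92, and with *Hhex*, a transcription factor of delta cells, it was 0.89. In virgin mice, 3 of 5 alpha, 3 of 3 delta and 2 of 2 PP cell markers were called lower with S-961, where 17.6% of all genes were. In multipara mice, where *Neurog3* was not called, 1 of 5 alpha, 1 of 3 delta and 2 of 2 PP cell markers were called lower. There 2 of 5 alpha markers were called higher, where 19.4% of all genes were called lower and 18.2% higher. The part of these cells in the *Neurog3* difference was not tested.

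The genes for lactate production and transport peaked together in the library rich in leukocyte genes. *Ldha* (chr7:46841475-46855627, plus strand) encodes the lactate dehydrogenase subunit that favours lactate formation. It was at 18.5 and 17.1 CPM in virgin untreated, at 62.6 and 15.2 CPM in multipara untreated, at 9.37, 9.54 and 16.9 CPM in virgin S-961 and at 13.6, 13.2, 25.8 and 11.1 CPM in multipara S-961 islets. Multipara untreated 1 was the highest and multipara S-961 3 the next, while in virgin mice all S-961 libraries were below the untreated ones. The mean effect of S-961 was -0.94 on the log2 scale (SE 0.35, adjusted p = 0.0441), with -0.58 (SE 0.52, adjusted p = 0.412) in virgin and -1.29 (SE 0.47, adjusted p = 0.0522) in multipara mice. Without multipara untreated 1 the mean effect was -0.25 (SE 0.29, adjusted p = 0.504) and the multipara effect was 0.07 (SE 0.45, adjusted p = 0.928), so that the direction in multipara mice rested on that library. The multipara effect passed the threshold in 7 of 17 alternatives, among them DESeq2 (adjusted p = 0.0204) and the replicate block (adjusted p = 0.0466). The leukocyte gene *Ptprc* was at 111 CPM in it, against 4.16 to 20.8 CPM elsewhere, where multipara S-961 3 had the most. Pearson's r of *Ldha* with *Ptprc* was 0.90 over 11 libraries and 0.64 without multipara untreated 1.

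*Slc16a1* (chr3:104638668-104658462, plus strand) encodes the transporter of lactate and pyruvate whose entry into beta cells is disallowed. It was at 0.765 and 0.645 CPM in virgin untreated, at 3.89 and 0.693 CPM in multipara untreated, at 0.0927, 2.02 and 1.23 CPM in virgin S-961 and at 1.22, 0.873, 2.24 and 0.502 CPM in multipara S-961 islets. The groups overlapped throughout, and 3 reads in virgin S-961 1 stood against 67 and 38 reads in its replicates. The mean effect of S-961 was -0.14 (SE 0.69, 95% interval -1.65 to 1.38, adjusted p = 0.879), so that neither direction could be told from these libraries.

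The low-Km hexokinases phosphorylate glucose even at low concentrations. *Hk1* (chr10:62268855-62379908, minus strand) was at 13.8 and 16.0 CPM in virgin untreated and at 7.33, 9.90 and 8.86 CPM in virgin S-961 islets, without overlap. In multipara mice it was at 21.4 and 9.20 CPM untreated and at 12.8, 10.4, 13.0 and 10.4 CPM with S-961. The virgin log2 fold change was -0.77 (SE 0.29, adjusted p = 0.0562), just outside the threshold, and it passed in 4 of 17 alternatives, among them DESeq2 (adjusted p = 0.0405) and the fit without multipara untreated 1 (SE 0.18, adjusted p = 0.00959). The mean effect over both parity groups was -0.58 (SE 0.20, adjusted p = 0.0286), and without multipara untreated 1 it was -0.22 (SE 0.15, adjusted p = 0.27). *Hk2* (chr6:82725025-82774454, minus strand), the insulin-regulated isoform of muscle and fat, had the fewest reads of the 10 genes in most libraries. It was at 0.995 and 0.806 CPM in virgin untreated, at 3.44 and 0.126 CPM in multipara untreated, at 0.124, 0.121 and 0.776 CPM in virgin S-961 and at 0.407, 0.436, 1.42 and 0.355 CPM in multipara S-961 islets. The lowest of these values rest on 2 to 4 reads. The mean effect was -1.43 (SE 0.75, adjusted p = 0.133), and it was 0.47 without multipara untreated 1, so that its direction also rested on that library. The antisense genes *Hk1os* and *Gm17034* overlap *Hk1* and *Hk2*, and the counting was of strand-specific libraries, although the strand setting is not given in the sources used here.

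The upstream sequences of *Ldha*, *Hk2* and *Slc16a1*, which were all highest in multipara untreated 1, and of *Neurog3*, which had the lowest adjusted p with S-961, are shown so that their composition can be compared. They are the 250 bases before the RefSeq start site (GRCm38.p6), 5′ to 3′ on the gene's strand, with capitals where a searched motif lies on either strand: ACGTG, the core of the hypoxia response element, CACGTG, the E-box that contains it, GGGCGG, the GC box, and TGACTCA, the AP-1 site.
Ldha, chr7:46845554-46845803 on the plus strand: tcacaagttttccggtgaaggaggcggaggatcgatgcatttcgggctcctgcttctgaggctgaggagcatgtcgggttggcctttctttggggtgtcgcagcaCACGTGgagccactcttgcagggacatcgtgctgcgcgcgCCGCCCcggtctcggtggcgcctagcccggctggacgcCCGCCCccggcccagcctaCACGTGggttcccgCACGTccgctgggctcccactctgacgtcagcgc
Hk2, chr6:82774455-82774704 on the minus strand: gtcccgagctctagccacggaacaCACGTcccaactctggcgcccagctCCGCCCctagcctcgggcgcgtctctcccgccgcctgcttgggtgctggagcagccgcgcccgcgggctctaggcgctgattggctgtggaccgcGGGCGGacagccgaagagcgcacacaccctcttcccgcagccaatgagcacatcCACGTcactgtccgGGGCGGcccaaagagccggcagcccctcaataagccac
Slc16a1, chr3:104638414-104638663 on the plus strand: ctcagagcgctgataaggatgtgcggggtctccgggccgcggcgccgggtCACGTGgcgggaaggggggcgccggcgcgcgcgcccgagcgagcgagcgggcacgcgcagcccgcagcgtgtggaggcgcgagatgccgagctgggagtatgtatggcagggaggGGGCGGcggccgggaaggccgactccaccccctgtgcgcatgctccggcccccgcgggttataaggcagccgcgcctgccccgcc
Neurog3, chr10:62132840-62133089 on the plus strand: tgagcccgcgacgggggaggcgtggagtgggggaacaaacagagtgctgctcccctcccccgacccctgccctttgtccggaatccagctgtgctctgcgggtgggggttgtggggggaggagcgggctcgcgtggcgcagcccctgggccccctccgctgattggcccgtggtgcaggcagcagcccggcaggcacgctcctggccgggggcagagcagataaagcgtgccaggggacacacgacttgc
The *Ldha* window shown held 2 CACGTG and 2 GGGCGG matches, and *Slc16a1* held 1 of each. *Ldha* has a second RefSeq start site, and its window (chr7:46846832-46847081) held none of the 4 motifs. ACGTG was counted on both strands, so that each CACGTG holds 2 of its matches, and there were 5 ACGTG matches in the *Ldha* window shown and 2 each in *Slc16a1* and *Hk2*. *Hk2* held 3 GGGCGG matches and no CACGTG. The *Neurog3* window held none of the 4 motifs. The *Oat* window and the *Hk1* windows also held none of them, and these genes too were highest in multipara untreated 1. Among 32851 mouse promoter windows of the same length, 16.6% held ACGTG, 6.02% CACGTG, 32.7% GGGCGG and 4.46% TGACTCA. A window was found for 9 of the 10 genes, and *Aldh1a3* had none. Matches are descriptions of sequence and do not show that a factor binds.

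*Acot7* (chr4:152178134-152271855, plus strand), which encodes an acyl-CoA thioesterase that releases fatty acids from their CoA esters, was lower with S-961 in virgin mice. It was at 4.36 and 7.42 CPM in virgin untreated and at 1.92, 2.17 and 2.59 CPM in virgin S-961 islets, without overlap. In multipara mice it was at 6.74 and 2.77 CPM untreated and at 4.47, 5.79, 5.92 and 2.93 CPM with S-961. In virgin mice it fell by 1.40 on the log2 scale (SE 0.41, 2.64-fold lower, adjusted p = 0.0218). In multipara mice the log2 fold change was -0.00151 (95% interval -0.87 to 0.87, adjusted p = 0.998). The virgin call was lost when virgin untreated 2, virgin S-961 1 or virgin S-961 2 was left out, with adjusted p of 0.219, 0.0724 and 0.0614, at log2 fold changes of -0.97, -1.31 and -1.39. *Oat* (chr7:132557478-132576398, minus strand), the mitochondrial ornithine aminotransferase, was at 13.8 and 13.7 CPM in virgin untreated, at 20.5 and 10.02 CPM in multipara untreated, at 8.19, 5.76 and 10.2 CPM in virgin S-961 and at 13.2, 12.5, 12.8 and 7.48 CPM in multipara S-961 islets. The virgin groups did not overlap, while the multipara groups did. The mean effect on *Oat* was -0.59 (SE 0.23, adjusted p = 0.0483), a call that was lost with 9 of the 17 alternatives, and without multipara untreated 1 it was -0.28 (SE 0.22, adjusted p = 0.329). *Oat* lies within the span of *Fgfr2* on the same strand, so that strand does not separate intronic reads of that gene from its own. *Acot7* and *Slc16a1* also overlap predicted genes on their own strand, *Gm13096* for the former and *Gm43581* and *Gm43585* for the latter.

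The members of growth factor pathways did not pass the test with S-961. *Igfbp4* (chr11:99041244-99054392, plus strand) encodes a secreted protein that binds insulin-like growth factors. It was at 12.2 and 10.5 CPM in virgin untreated, at 22.7 and 8.45 CPM in multipara untreated, at 8.69, 6.55 and 9.80 CPM in virgin S-961 and at 14.5, 13.2, 33.2 and 13.6 CPM in multipara S-961 islets. The highest value belonged to multipara S-961 3, where the stromal gene *Col3a1* was at 108.5 CPM against 17.7 to 48.6 CPM elsewhere, and Pearson's r of *Igfbp4* with *Col3a1* was 0.83 over 11 libraries. The mean effect of S-961 was -0.10 (SE 0.32, adjusted p = 0.811). *Smad3* (chr9:63646767-63757994, minus strand), a transcription factor downstream of TGF-beta receptors, varied least. It was at 5.01 and 4.92 CPM in virgin untreated, at 7.06 and 4.35 CPM in multipara untreated, at 5.81, 5.34 and 5.05 CPM in virgin S-961 and at 7.35, 5.38, 6.05 and 5.70 CPM in multipara S-961 islets. Its highest and lowest libraries differed 1.69-fold, and the mean effect was 0.11 (SE 0.17, 95% interval -0.26 to 0.48, adjusted p = 0.605).

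**Figure D2:**
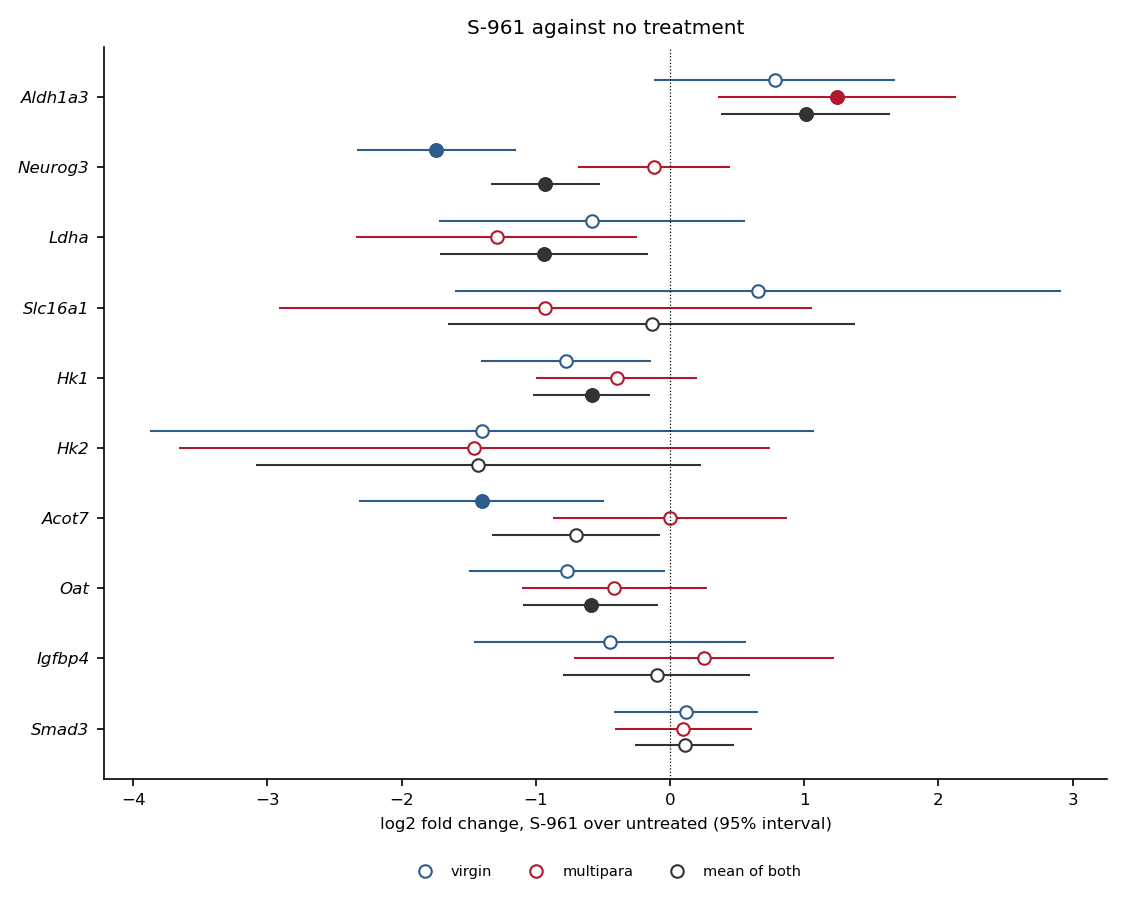
Log2 fold change of S-961 over untreated for each gene in virgin mice, in multipara mice and as the mean of both, with 95% intervals. Filled points have an adjusted p under 0.05 in edgeR's quasi-likelihood test. *Neurog3* and *Acot7* were called in virgin and *Aldh1a3* in multipara mice.

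Counted together, 2 of the 10 genes were called in virgin mice, both lower, where 36.5% of the 17996 genes tested were called, 18.8% higher and 17.6% lower. In multipara mice 1 of 10 was called, and it was higher, where 37.6% of all genes were called, 18.2% higher and 19.4% lower. On the mean of both parity groups 5 of 10 were called, 1 higher (*Aldh1a3*) and 4 lower (*Neurog3*, *Hk1*, *Ldha* and *Oat*), where 52.1% of all genes were called, 26.1% higher and 25.9% lower. The share of members called was therefore below or near that of all genes. Their median log2 fold change was -0.67 in virgin, -0.26 in multipara and -0.59 on the mean, where the median of all genes was -0.04, 0.03 and -0.01. In virgin mice 8 of 10 genes did not overlap between treated and untreated, 7 lower and 1 higher (*Smad3*), where 68.3% of all genes did not overlap. In multipara mice this held for 1 of 10, *Aldh1a3*, against 49.0% of all genes, and over both parity groups for 0 of 10, against 36.4%. These comparisons share libraries and are not independent of each other. Without multipara untreated 1, the mean effect kept 2 calls, *Aldh1a3* (log2 fold change 1.17, adjusted p = 0.0195) and *Neurog3* (-0.99, adjusted p = 0.00359), where 41.7% of all genes were called in that fit, and in multipara mice 9 of 10 log2 fold changes were above 0, against 3 of 10 with it. Without the library labelled multipara S-961 4, the mean effect kept 3 calls, *Aldh1a3*, *Neurog3* and *Hk1*, where 51.1% of all genes were called. Without multipara S-961 3, it had 6 calls, the 5 above and *Acot7* (-0.76, adjusted p = 0.0483), where 56.1% of all genes were called. In multipara mice 2 of 10 were then called, *Aldh1a3* higher and *Ldha* lower (-1.63, adjusted p = 0.0176), where 42.1% of all genes were.

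**Figure D3:**
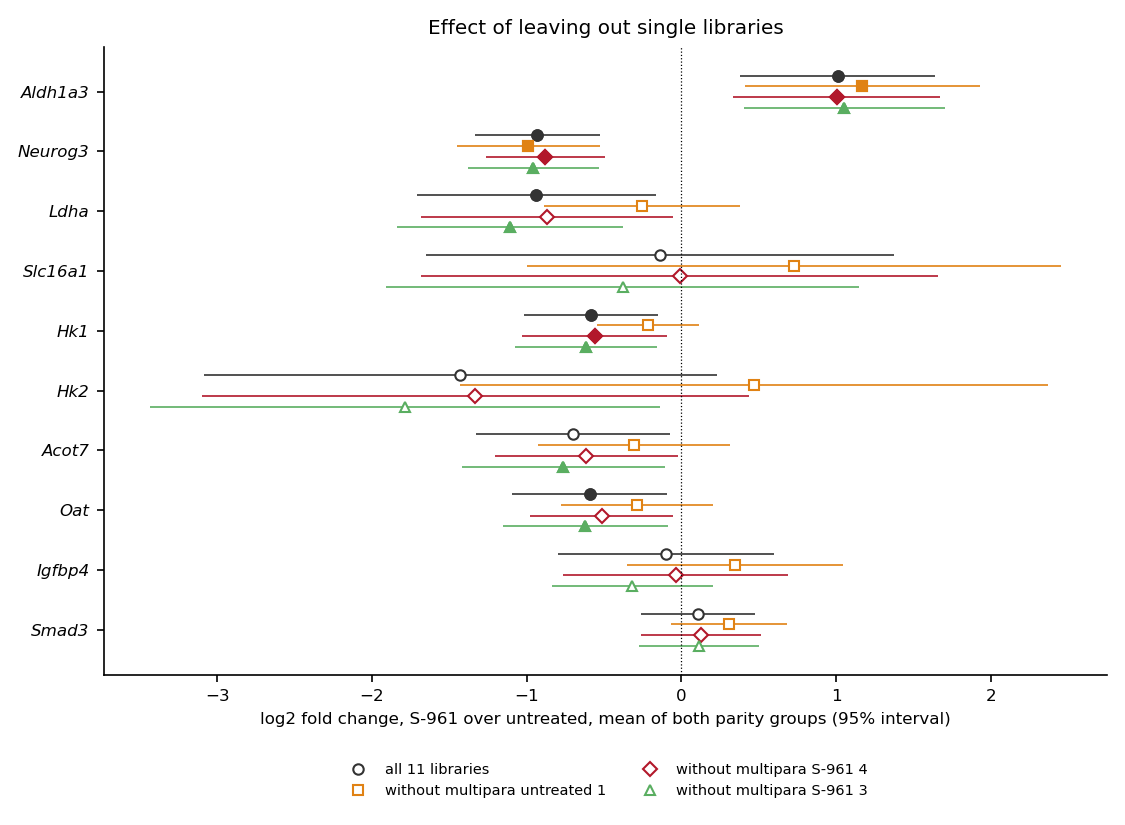
Mean effect of S-961 over both parity groups for each gene, as log2 fold change with 95% intervals, over all 11 libraries and with each of 3 libraries left out. Filled points have an adjusted p under 0.05, and *Aldh1a3* and *Neurog3* stay filled in all 4 settings, while *Ldha* and *Oat* do not.

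The effect of parity was compared within each treatment. With S-961, 0 of 10 genes were called between multipara and virgin mice, as were 0 of all 16784 genes (0% called in edgeR), although the fold changes of all 10 were above 0, with a median of 0.48 against 0.0035 for all genes. At an unadjusted p under 0.05, 4 of the 10 genes were higher, where 8.03% of all genes were higher. The same 4 genes did not overlap between the groups, where 5.23% of all genes did not overlap and were higher. They were *Acot7* with a log2 fold change of 1.12 (SE 0.30, adjusted p = 0.315), *Igfbp4* with 1.18 (SE 0.36, adjusted p = 0.342), *Neurog3* with 0.85 (SE 0.26, adjusted p = 0.346) and *Hk1* with 0.44 (SE 0.17, adjusted p = 0.463). DESeq2 called 358 genes higher and 11 lower, *Acot7* (adjusted p = 0.0302) and *Igfbp4* (adjusted p = 0.0424) among them. Without the library labelled multipara S-961 4, edgeR called 3.16% of all genes and *Acot7* was called, with a log2 fold change of 1.30 (SE 0.24, adjusted p = 0.0279). Without multipara S-961 3, the log2 fold change of *Igfbp4* was 0.73, and 0 of the 10 genes were called. Several marker lists moved with these values, with fold changes above 0 for 5 of 5 alpha, 3 of 3 delta, 2 of 2 PP, 10 of 10 acinar, 5 of 5 duct, 7 of 7 stromal and 8 of 8 cycling genes and 0 of all of these called. Other lists did not, with 3 of 6 endothelial, 2 of 6 macrophage and 3 of 5 lymphocyte markers above 0. Red cell genes were above 0 for 0 of 5, with a median of -1.66. For the lists wholly above 0, medians ran from 0.28 for delta to 3.13 for cycling genes, and the part of these markers in the members' differences was not tested. For this comparison the study reports cell cycle genes, *Cdk1* among them, as lower in multipara islets. By the labels used here *Cdk1* was higher, with a log2 fold change of 3.99. In stained pancreas sections the study also counted fewer beta cells positive for Ki67 in multiparous than in virgin mice with S-961. Here the whole-islet RNA of that marker, *Mki67*, had a log2 fold change of 2.95 in multipara over virgin mice. The labels were kept as given. Every comparison by parity, the interaction and the S-961 effects within each parity group rest on them. The reason for these differences from the study was not tested. Stromal markers summed to more in these multipara islets, 140 to 301 CPM against 76.3 to 82.2 CPM in virgin islets, and their part in the *Igfbp4* difference was not tested.

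In untreated islets 0 of 10 genes were called by edgeR or by DESeq2, where edgeR called 0 of 15812 genes (0%) and DESeq2 called 22 higher and 34 lower. At an unadjusted p under 0.05, *Neurog3* was lower in multipara mice with a log2 fold change of -0.79 (SE 0.24, adjusted p = 0.719), where 3.10% of all genes were, and it was the 1 of 10 genes that lay lower without overlap, where 18.8% of all genes did. The other fold changes followed multipara untreated 1. With it, *Ldha* stood at 1.16 (SE 0.68), *Slc16a1* at 1.73 (SE 0.86), *Hk2* at 1.04 (SE 1.27) and *Igfbp4* at 0.48 (SE 0.50) on the log2 scale. Without it, all 10 were below 0, with a median of -0.46 and 0 of 10 called, in a fit where the lone multipara library was assumed to vary like the virgin libraries. The values were -0.25 for *Ldha*, -0.05 for *Slc16a1*, -2.81 for *Hk2*, -0.71 for *Hk1* and -0.45 for *Igfbp4*. With multipara untreated 1 as the lone multipara library, the values were 1.83 for *Ldha*, 2.47 for *Slc16a1*, 1.94 for *Hk2*, 0.59 for *Oat* and 1.01 for *Igfbp4*. The direction for these genes thus depended on which multipara library was used.

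**Figure D4:**
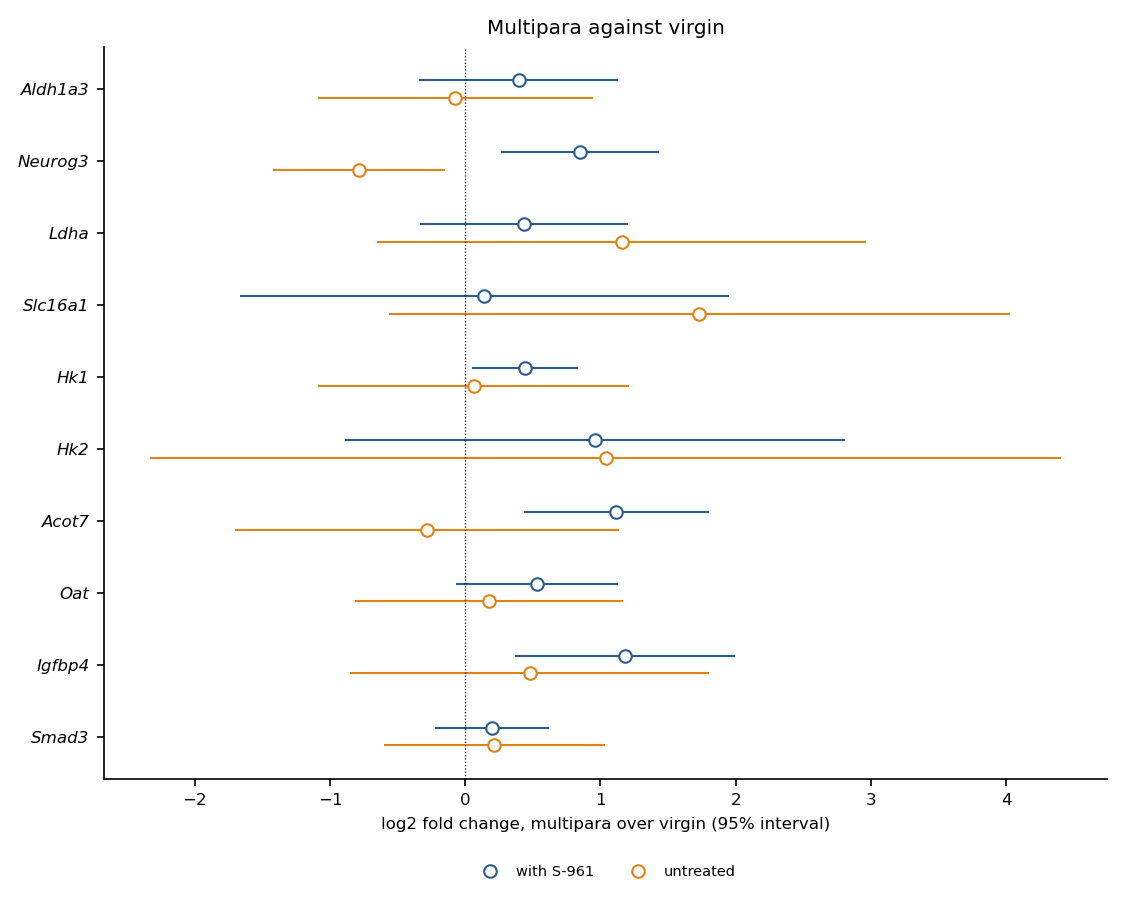
Log2 fold change of multipara over virgin for each gene with S-961 and untreated, with 95% intervals, and no gene called in edgeR. The intervals are wide for *Hk2*, *Slc16a1* and *Ldha* in untreated islets, where the 2 multipara libraries differed.

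Whether the parity effect differed with treatment was tested by the interaction. *Neurog3* had the largest term of the 10 genes, 1.62 on the log2 scale (SE 0.38, 95% interval 0.79 to 2.45, unadjusted p = 0.00134). Multipara was above virgin without overlap with S-961 and below it without overlap when untreated. Over all 17996 genes the adjusted p was 0.409, and it ran from 0.0258 with DESeq2 to 1 over the alternatives. *Acot7* had a term of 1.40 (SE 0.58, unadjusted p = 0.0349, adjusted p = 0.748). In all, 0 of 10 genes were called by edgeR and 1 by DESeq2, where edgeR called 0% of all genes and DESeq2 called 61 higher and 20 lower, and 2 of 10 genes had an unadjusted p under 0.05, where 6.55% of all genes did. Without multipara untreated 1 the *Neurog3* term was 1.503 (SE 0.45, adjusted p = 0.86) and without the library labelled multipara S-961 4 it was 1.72 (SE 0.35, adjusted p = 0.0854). The opposite and non-overlapping pattern of *Neurog3* was met by 2.13% of all genes in either arrangement. Interaction terms were above 0 for 5 of 5 alpha (median 0.99), 3 of 3 delta (0.89) and 2 of 2 PP cell markers (0.64). They were also above 0 for 5 of 5 duct (0.45), 7 of 7 stromal (1.15) and 8 of 8 cycling genes (1.31). Above 0 were 6 of 10 acinar, 1 of 8 beta, 1 of 6 endothelial, 0 of 6 macrophage, 0 of 5 lymphocyte and 0 of 5 red cell genes. In each of these lists 0 were called, and their part in the *Neurog3* term was not tested.

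Of 14 further genes that are known to be low in beta cells, 0 were called higher and 2 lower with S-961 in virgin mice, where 17.6% of all genes were called lower. They were *Gas6* (log2 fold change -0.998, adjusted p = 0.00688) and *Ndrg2* (-0.99, adjusted p = 0.025), and the next by p was *Yap1* (-0.65, adjusted p = 0.0605). *Gas6*, a ligand of TAM receptors, was at 26.5 and 25.0 CPM in virgin untreated and at 10.2 to 14.7 CPM in virgin S-961 islets. In multipara mice 0 were called higher and 1 lower, where 18.2% of all genes were called higher and 19.4% lower. The 1 called lower was *Arhgdib*, a gene that leukocytes use. It was at 88.0 CPM in multipara untreated 1, 7.69 CPM in multipara untreated 2 and 2.39 to 9.03 CPM in multipara S-961 islets, and its log2 fold change was -3.23 (adjusted p = 0.00666). Next by p were *Cat* (-0.73, adjusted p = 0.15) and *Cxcl12* (-0.91, adjusted p = 0.262). In multipara mice 4 of the 14 fold changes were above 0, with a median of -0.29. Without multipara untreated 1, 10 of the 14 were above 0, with a median of 0.21. With S-961, 14 of 14 were above 0 in multipara over virgin mice, with a median of 0.57 and 0 called. The smallest p belonged to *Cxcl12* (1.43), *Pdgfra* (2.50) and *Tgm2* (1.20), each with an adjusted p = 0.315. *Pdgfra*, a receptor of mesenchymal cells, was at 0.453 to 0.742 CPM in virgin and at 1.39 to 7.18 CPM in multipara S-961 islets, with the most in multipara S-961 3. Without the library labelled multipara S-961 4, 3 of 14 were called higher, where 2.69% of all genes were. In untreated islets 0 of 14 were called, 11 were above 0 and 3 below, and the median was 0.77, against -0.22 without multipara untreated 1. The lowest p belonged to *Gas6* (-0.40, unadjusted p = 0.00845) and *Ndrg2* (-0.48, unadjusted p = 0.0381), 2 of the 3 genes below 0, both with an adjusted p = 0.719. Of the 14 interaction terms 7 were above 0 and 7 below, with a median of -0.05 and 0 called, and without multipara untreated 1 all 14 were above 0, with a median of 0.58.

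Genes of glycolysis and lactate outside the 10 took 22 rows for 21 genes. With S-961, 0 were called higher and 4 lower in virgin mice, where 17.6% of all genes were called lower. In multipara mice 0 were called higher and 8 lower, where 19.4% of all genes were, and on the mean 0 and 9, where 25.9% were. Fold changes were above 0 for 7 of the 22 in virgin and 6 in multipara mice. *Aldoc*, an aldolase, was at 13.1 to 18.4 CPM untreated and at 4.24 to 5.97 CPM with S-961, and its mean effect was -1.69 (SE 0.13, adjusted p = 6.55e-06). *Ldhb* was at 23.1 to 26.1 CPM untreated and at 11.3 to 16.1 CPM with S-961 (-0.81, SE 0.10, adjusted p = 8.35e-05). For both genes the S-961 libraries lay below the untreated ones without overlap. *Pfkl*, the liver-type phosphofructokinase, was also called in virgin mice (-0.79, adjusted p = 0.00138). *Hk3*, a hexokinase of leukocytes named after its values were seen, was called lower in multipara mice (-2.83, adjusted p = 0.00982), and it was at 7.86 CPM in multipara untreated 1 and at 0.186 to 0.875 CPM in the other libraries. Without that library 0 of the 22 were called higher and 4 lower in multipara mice, where 10.8% of all genes were called lower.

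Among 10 progenitor and immaturity genes, 8 could be tested. In virgin mice 1 was called higher and 3 lower, where 18.8% of all genes were called higher and 17.6% lower. In multipara mice 2 were called higher and 0 lower, where 18.2% and 19.4% of all genes were. On the mean the counts were 3 and 3, where 26.1% and 25.9% of all genes were called. *Myc*, a driver of cell growth, was at 30.1 to 45.5 CPM in all S-961 libraries and at 4.41 to 12.2 CPM in the untreated ones, and its mean effect was 2.44 (SE 0.23, 5.42-fold, adjusted p = 1.76e-05). Among those called lower in virgin mice were the immaturity markers *Npy*, which fell by 1.34 (adjusted p = 0.0279), and *Cd81*, which fell by 0.47 (adjusted p = 0.028). In multipara mice *Fev*, a factor that follows *Neurog3* in the endocrine lineage, rose by 0.95 (adjusted p = 0.00671), and *Hes1*, a Notch target, had 0.54 (adjusted p = 0.0782). The interaction term of *Fev* was 1.05 (unadjusted p = 0.00529, adjusted p = 0.555). Of 15 beta cell identity genes, 5 were called higher and 5 lower on the mean, where 26.1% of all genes were called higher and 25.9% lower. *Neurod1* rose by 1.32 (adjusted p = 1.16e-05), while *Ins1* fell by 1.62 (adjusted p = 1.55e-05) and *Ins2* fell by 1.77 (adjusted p = 2.18e-05). With S-961 the parity comparison called 0 of these genes in each list.

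The genes whose pattern over the 11 libraries was most like that of each member are given as a description, over 11287 genes with a mean log2 CPM of at least 2. The libraries share treatment, cell makeup and depth. *Neurog3* was most like *Eef1a2* (Pearson r 0.97), *Sfrp5* (0.96) and *Aard* (0.96), and *Aldh1a3* was most like *Zfp143* (0.96), *Pxylp1* (0.955) and *Smad6* (0.945). *Ldha* was most like *Lsp1* (0.98), *Rac2* (0.98) and *Sp100* (0.97), and *Hk2* was most like *C1ra* (0.90), *Rac2* (0.90) and *C1s1* (0.895). *Rac2* and *Lsp1* are genes of leukocytes. *Igfbp4* was most like *Fn1* (0.96), *Dcn* (0.93) and *Col1a2* (0.92), genes of the extracellular matrix. For *Oat* they were *Lgals1* (0.93), *Jpt1* (0.92) and *Ppm1m* (0.92), for *Hk1* *Fam107b* (0.92), *Thy1* (0.91) and *Frmd8* (0.90), and for *Acot7* *Timp2* (0.91), *Trp53i11* (0.91) and *Rab11fip4* (0.90). *Smad3* was most like *Pml* (0.91), *Myof* (0.90) and *Iqsec1* (0.90), and *Slc16a1*, with its few reads, was most like *Tfeb* (0.85), *Lmo4* (0.84) and *Tpcn2* (0.805). Within the 10 genes, *Ldha* and *Hk2* had the highest r, 0.892 over 11 libraries and 0.845 without multipara untreated 1, and *Aldh1a3* with *Ldha* had the lowest, -0.446 and -0.485.

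**Figure D5:**
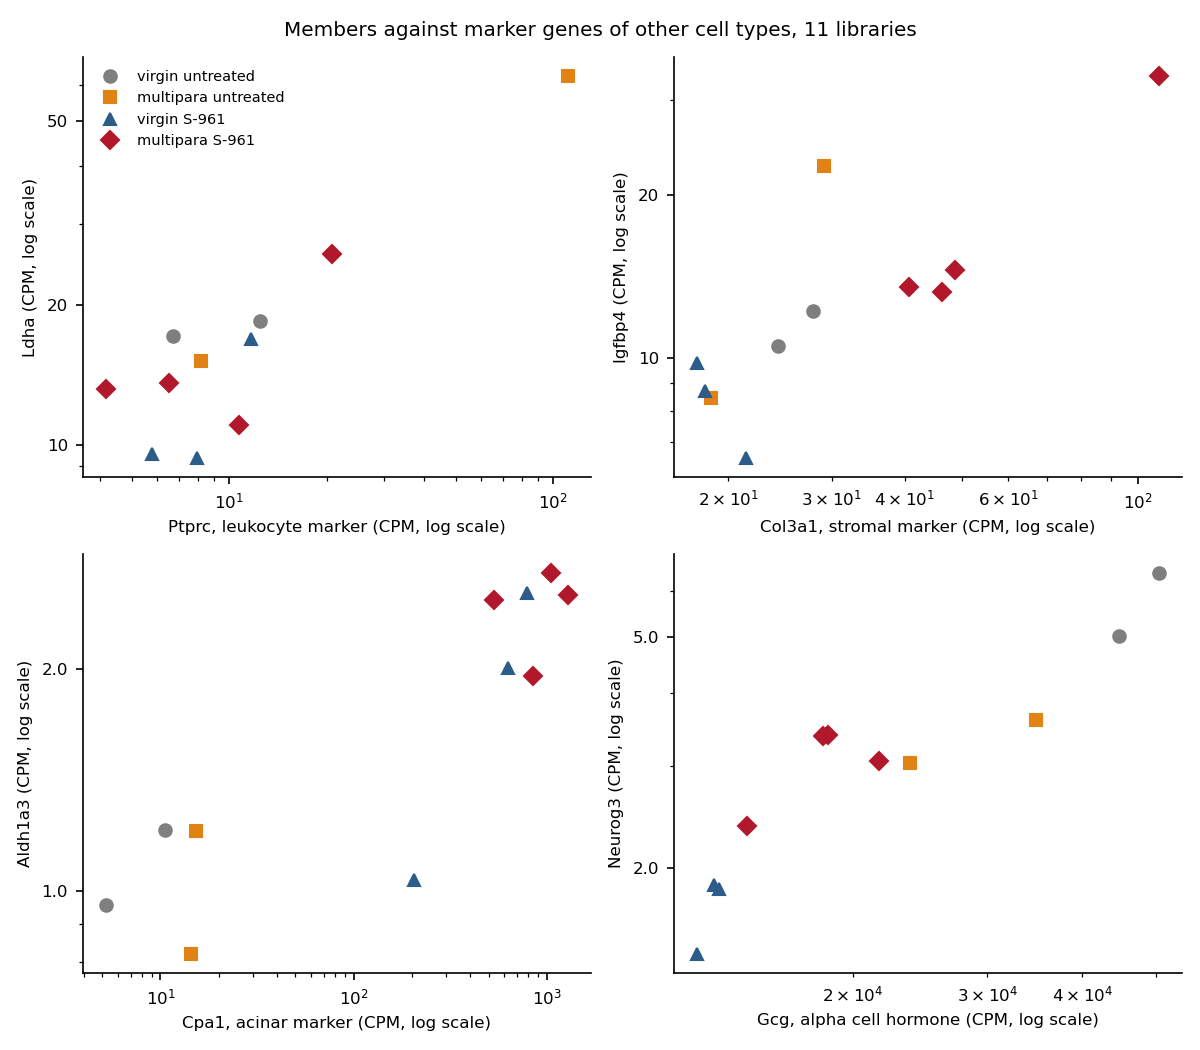
Levels of 4 members against marker genes of other cell types, with 1 symbol per library and both axes in CPM on log scales. *Ldha* is highest where *Ptprc* is at 111 CPM, *Igfbp4* where *Col3a1* is at 108.5 CPM, and *Neurog3* follows *Gcg*, while *Aldh1a3* and *Cpa1* are both low in untreated islets.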

How the data were processed

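Islet mRNA of 11 libraries was sequenced from strand-specific, polyA-selected preparations. The authors deposited 1 table per library of expected counts per gene, made with STAR and RSEM on GRCm38 (mm10) per the labels; versions are not given in the sources used here. The counts were not normalized and were rounded here to whole numbers. The 10 genes and the other gene lists were chosen with earlier results of these data known, and they give no independent support to any pattern.

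Counts were tested with the quasi-likelihood F-test of edgeR 4.0.16 in R 4.3.3, with TMM factors, genes kept by filterByExpr (count minimum 10, total 15) and Benjamini-Hochberg adjustment over all genes tested at a threshold of 0.05. The parity comparisons used their own libraries, and the S-961 effects and the interaction used all 11 libraries in 4 groups. The study shows counts normalized with DESeq2, and its test across genes is not given in the sources used here. Alternatives were DESeq2 1.42.0, other size factors, library totals without *Ins1* and *Ins2*, other filters, a replicate block and leaving out each library. The rule for names was all 10 members, and from each other list the 3 genes with the smallest p and every called gene where there were 5 or fewer, of which those described are given, and some items are not reported here. Likeness used log2 CPM with a prior count of 2. The script was tested on simulated data. No library repeated another. Figures were drawn with matplotlib 3.10.9. Depth was 22028507 to 32234146 counts, and members with few reads have wide intervals.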

Additional observations from a re-analysis of the deposited data

Results flagged for a closer look

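Dixon's ratio of gap to range was taken for each of the 10 genes over the same 4 multipara S-961 libraries. For 3 genes 1 library lay far from the others, with a critical value of 0.829. About 1 in 20 such ratios is expected to pass by chance, but the genes share libraries, so that the 10 ratios are not independent. *Igfbp4* had a ratio of 0.935, from 33.2 CPM in multipara S-961 3. *Hk2* had a ratio of 0.923, from 1.42 CPM in the same library. *Oat* had a ratio of 0.879, from 7.48 CPM in multipara S-961 4.

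The parity effect on *Neurog3* had opposite signs in S-961 and untreated islets, with an interaction term of 1.62 on the log2 scale. This is the one difference of the 10 in which every multipara library was above every virgin library in one treatment and below in the other. It did not pass adjustment over all genes in edgeR (adjusted p = 0.409) and passed in DESeq2 (adjusted p = 0.0258).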

How the results depend on the processing

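The calls of *Neurog3* with S-961 in virgin mice and on the mean of both parity groups held in all 17 alternatives. On the mean, *Aldh1a3* lost its call in 1 of 17 alternatives, *Hk1* in 7, *Ldha* in 9 and *Oat* in 9, and library totals without *Ins1* and *Ins2* gave adjusted p of 0.0892 for *Ldha*, 0.0851 for *Hk1* and 0.112 for *Oat* in edgeR. That scaling moved the median of all genes to 0.141 in multipara mice, from 0.0314, and their split of calls to 4034 higher and 2871 lower, from 3272 and 3496. It also gave *Acot7* 0.09637 in multipara mice and *Igfbp4* 0.01436 on the mean, both of opposite sign, as did no filter (0.05111) and the replicate block (0.06662) for *Acot7* in multipara mice. The levels of *Ldha*, *Oat* and *Smad3* in virgin untreated islets moved to 16.83, 12.97 and 4.686 CPM.

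The parity counts were 0 in edgeR. With S-961, DESeq2 called 369 genes (358 higher, 11 lower). Untreated, DESeq2 called 56 (22 higher, 34 lower), no filter 3 (2 higher, 1 lower) and the filter at 1 CPM 1 (1 higher). For the interaction, DESeq2 called 81 (61 higher, 20 lower) and no filter 4 (2 higher, 2 lower), and the term of *Smad3* was 0.007976 with no filter. Replicate numbers did not pair the samples, with correlations of same-numbered libraries from -0.359 to 0.246. The replicate block called 342 genes with S-961 (309 higher, 33 lower) and 34 for the interaction (14 higher, 20 lower), and turned the sign of *Hk1* untreated (-0.05587) and of the interaction terms of *Hk2* (0.789) and *Smad3* (0.03227).

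Leaving out 1 library at a time gave 0 to 525 calls with S-961 (0 to 447 higher, 0 to 78 lower), 0 to 1738 untreated (0 to 1485 higher, 0 to 253 lower), 0 to 45 for the interaction (0 to 19 higher, 0 to 32 lower), 3053 to 7466 for S-961 in virgin (1548 to 3816 higher, 1505 to 3650 lower) and 3618 to 7451 in multipara mice (1585 to 3659 higher, 2033 to 3792 lower). The 525 calls came without multipara S-961 4 and the 1738 without multipara untreated 2. Where a group was left with 1 library, it was assumed to vary like the others. Log2 fold changes that changed sign ranged, for parity untreated, -0.4207 to 0.17 for *Aldh1a3*, -0.253 to 1.826 for *Ldha*, -0.04696 to 2.467 for *Slc16a1*, -0.7136 to 0.5363 for *Hk1*, -2.805 to 1.94 for *Hk2*, -0.477 to 0.5947 for *Oat*, -1.106 to 0.2103 for *Acot7*, -0.4526 to 1.009 for *Igfbp4* and -0.213 to 0.521 for *Smad3*. For parity with S-961 they ranged -0.4064 to 0.8731 for *Slc16a1*, and for the interaction -1.39 to 0.6498 for *Ldha*, -2.332 to 0.1438 for *Slc16a1*, -0.09403 to 1.116 for *Hk1*, -0.9762 to 3.744 for *Hk2*, -0.0616 to 0.9701 for *Oat* and -0.321 to 0.3731 for *Smad3*. For S-961 in multipara mice they ranged -1.969 to 0.07009 for *Ldha*, -1.673 to 0.8021 for *Slc16a1*, -0.8663 to 0.343 for *Hk1*, -2.379 to 2.342 for *Hk2*, -0.8306 to 0.2004 for *Oat*, -0.4911 to 0.7853 for *Acot7*, -0.2779 to 1.143 for *Igfbp4*, -0.1991 to 0.4942 for *Smad3* and -0.2365 to 0.009916 for *Neurog3*, in virgin mice -0.0974 to 1.201 for *Slc16a1*, and on the mean -0.514 to 0.7302 for *Slc16a1*, -2.15 to 0.4702 for *Hk2*, -0.3627 to 0.3475 for *Igfbp4* and -0.03862 to 0.3077 for *Smad3*. For parity untreated, the interaction and S-961 in multipara mice, one end of each range came without multipara untreated 1 and the other without multipara untreated 2. The cause was not tested.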
